A study of Zea mays with 6 samples.

Results

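Long intergenic non-coding RNA (lincRNA) genes were examined in the root tips of maize (Zea mays) under 2 kinds of irrigation. The set holds the 191 genes that the deposited table types as lincRNA and that were chosen by their measured level, a mean over the 6 libraries of at least 1 FPKM (fragments per kilobase of transcript, scaled to sequencing depth). These were 191 of 2532 lincRNA genes, of 21902 genes of any type at that level, and of 45953 genes in all. Plants under negative pressure irrigation (NPI), in which the soil's own suction takes up water from a supply kept under slight vacuum, gave 3 libraries. The comparison group also gave 3 libraries, whose labels read deficit irrigation in one place and drip irrigation elsewhere, and it is called DI throughout. The cultivar, plant age and number of pooled plants are not given in the sources used here. No label states that the libraries came from separate plants, so the spread behind each p-value may be technical.

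A lincRNA is a transcript with no long reading frame whose gene lies, by definition, apart from coding genes. Plant lincRNAs are known as precursors of small RNAs, as decoys that bind a microRNA, and as guides for chromatin modification, but most have no known function. Many carry a poly(A) tail, and these libraries, made from poly(A)-selected RNA, favour those. None of the 191 genes has a description or a Gene Ontology term in the deposited table, so they are named by identifier, and coordinates are those of that table.

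Total estimated counts ran from 57792439 to 71957443 per library, and a lincRNA gene of the set had a median of 166 counts per library. As a check of the tissue, 4 root cap genes summed to 28.0, 140.7 and 39.7 FPKM in NPI libraries 1 to 3. They summed to 231, 156.5 and 110.5 FPKM in DI libraries 1 to 3. Only NPI-2 lay within the range of DI, while NPI-1 and NPI-3 lay below every DI library. For 12 WUSCHEL-related homeobox genes, some of which mark stem cells, the sum was 88.0 to 227 FPKM in NPI and 21.3 to 54.25 in DI. Genes of leaf photosynthesis were also detected. The 15 chlorophyll a-b binding genes summed to 33.7 to 58.0 FPKM in NPI and 31.3 to 76.6 in DI. The 2 small subunit genes of Rubisco, the carbon-fixing enzyme, summed to 20.8 to 44.05 in NPI and 3.74 to 10.3 in DI. The part of cell make-up in the values below was not tested, and fewer cells of a type and less RNA per cell cannot be told apart in bulk tissue. NPI-2 stands apart from its group. Over all tested genes its log2(FPKM + 1) values correlated at 0.838 and 0.814 with NPI-1 and NPI-3, which correlated at 0.901 with each other, and at 0.854 to 0.882 with the DI libraries. Over the lincRNA genes it correlated at 0.703 and 0.678 with NPI-1 and NPI-3 and at 0.571 to 0.610 with the DI libraries.

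Few lincRNA genes reached the minimum level. Only 7.54% did, against 54.7% of protein-coding genes, and 1481 of the 2532 had no count in any library. The minimum used the level itself, so this is a description. Just inside it lay Zm00001d023202 at a mean of 1.04 FPKM, and just outside lay Zm00001d001668 at 0.983 FPKM. The median of the 191 means was 3.31 FPKM, with quartiles of 1.60 and 7.48, beside a median of 7.34 FPKM for the protein-coding genes that passed the same minimum. The genes were also short, with a median span of 764 bp between annotated start and end, beside 3582 bp for those coding genes. They were spread over all 10 chromosomes, with 12 to 23 on each, and 108 lay on the plus strand and 83 on the minus strand.

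A few genes carried most of the lincRNA signal. The 10 most abundant held 66.1% of the summed mean FPKM of the set, and Zm00001d000508 alone held 28.4%. That gene, on chromosome 3 (36020109 to 36020746, minus strand), had 1158, 892 and 931 FPKM in NPI libraries 1 to 3, and 709, 881 and 737 FPKM in DI libraries 1 to 3. All 3 NPI values lay above all 3 DI values, by a small margin. The log2 difference, NPI minus DI, was 0.43 (SE 0.30, adjusted p = 0.444 from edgeR, by its quasi-likelihood test, Benjamini-Hochberg adjusted over the 21902 genes). Its nearest coding gene, Zm00001d040292, described as induced upon tuberization, lies 234 bp away on the same strand and averaged 439 ± 44.8 FPKM over NPI libraries, against 476 ± 98.7 over DI libraries (SD, n = 3 each). The lincRNA lies beyond the 3′ end of that gene.

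Next in abundance, Zm00001d022856 on chromosome 1 (172181788 to 172182680) had 607, 382 and 546 FPKM in NPI and 149, 179.7 and 346 FPKM in DI. Zm00001d027037 on chromosome 4 (243421990 to 243423270) had 297, 357 and 176 FPKM in NPI and 103, 132 and 147 FPKM in DI. The groups did not overlap in either gene, and neither passed the threshold of adjusted p = 0.05 in edgeR, with log2 differences of 1.27 (SE 0.44, adjusted p = 0.179) and 1.16 (SE 0.29, adjusted p = 0.115). DESeq2 called both, at adjusted p = 0.0406 and 0.00578. Zm00001d022856 lies inside the coding gene Zm00001d030989 on the same strand and took 90.6% to 94.3% of the counts of that pair in NPI and 82.7% to 85.3% in DI. Zm00001d027037 spans, on the same strand, the whole of the cold shock protein gene Zm00001d053908 (243422436 to 243423185), which stayed at or below 0.08 FPKM. How reads in the shared stretch were assigned is not given, so that low level cannot be read alone. These 2 lincRNA genes and Zm00001d000508 held the first 3 ranks in both groups.

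**Figure D1:**
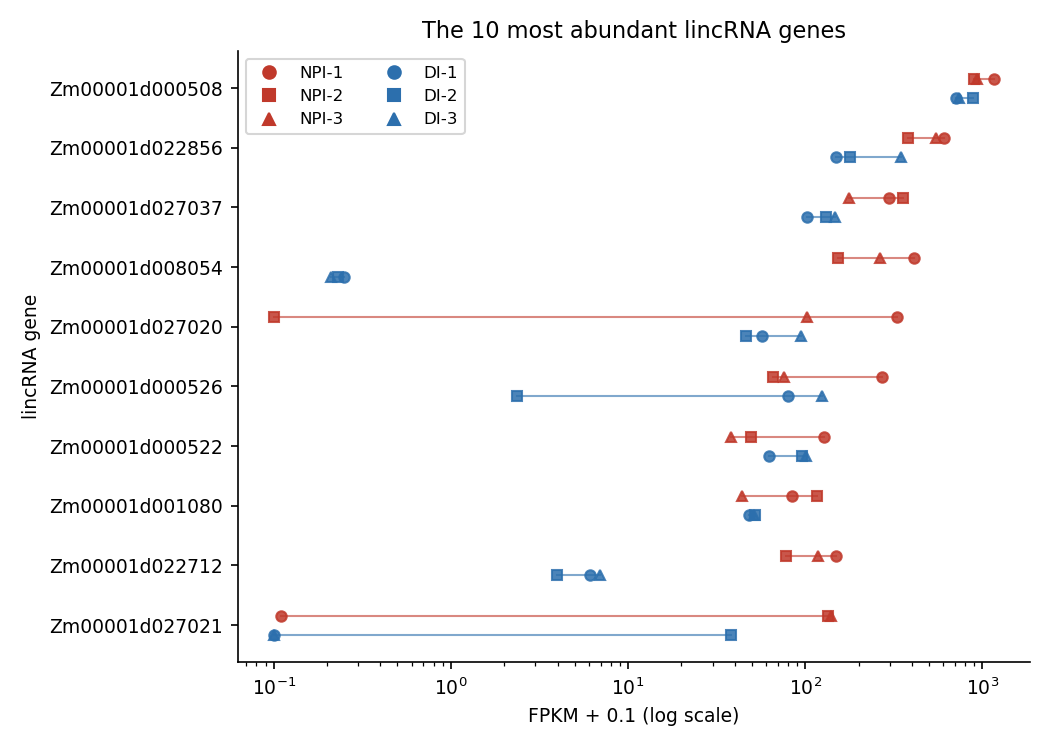
FPKM plus 0.1, on a log axis, of the 10 lincRNA genes with the highest mean level, in the 3 NPI libraries (red) and the 3 DI libraries (blue), with a line from the lowest to the highest library of each group. Zm00001d008054 and Zm00001d022712 stand apart between the groups, while Zm00001d027020 and Zm00001d027021 each run from near 0 to over 100 FPKM within NPI.

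The largest difference was in Zm00001d008054, on chromosome 8 (92434507 to 92434989, plus strand). It had 409, 153 and 265 FPKM in NPI and 0.15, 0.13 and 0.11 FPKM in DI, so that it ranked 4th in NPI and 190th of 191 in DI. The counts were 13493, 5489 and 9230 in NPI and 5 in each DI library. Zm00001d008054 and Zm00001d022712, the runner-up by p, were picked for their differences, so their tests do not stand as independent evidence. Zm00001d008054 also passed the minimum through NPI alone, so it had to be higher. In edgeR the log2 difference of Zm00001d008054 was 10.94 (SE 0.62, adjusted p = 0.00768), and leaving out any single DI library gave adjusted p of 0.0805 to 0.0976.

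Zm00001d008054 is typed as intergenic but lies wholly inside a coding gene on the same strand. That gene, Zm00001d009960 (92432744 to 92434990), encodes an HXXXD-type acyl-transferase, a family of enzymes that transfer acyl groups onto plant metabolites, and the annotated ends of the 2 genes differ by 1 bp. Counts of the coding gene were 11019, 4445 and 7214 in NPI and 3162, 4541 and 9124 in DI. It averaged 51.2 ± 24.4 FPKM over NPI libraries, against 36.5 ± 16.2 over DI libraries (SD, n = 3 each), a log2 difference of 0.57 (edgeR adjusted p = 0.531). The lincRNA took 55.0%, 55.3% and 56.1% of the counts of the pair in NPI, and 0.158%, 0.110% and 0.0548% in DI. This share hardly varied within NPI although the level of the pair did. Summed over both genes, CPM (counts scaled to a common library size) were 409, 151 and 255 in NPI and 54.8, 72.0 and 127 in DI, a 3.21-fold higher mean in NPI with no overlap. The sources used here do not give how reads in the shared stretch were assigned to the 2 genes, and its part in the result was not tested.

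**Figure D2:**
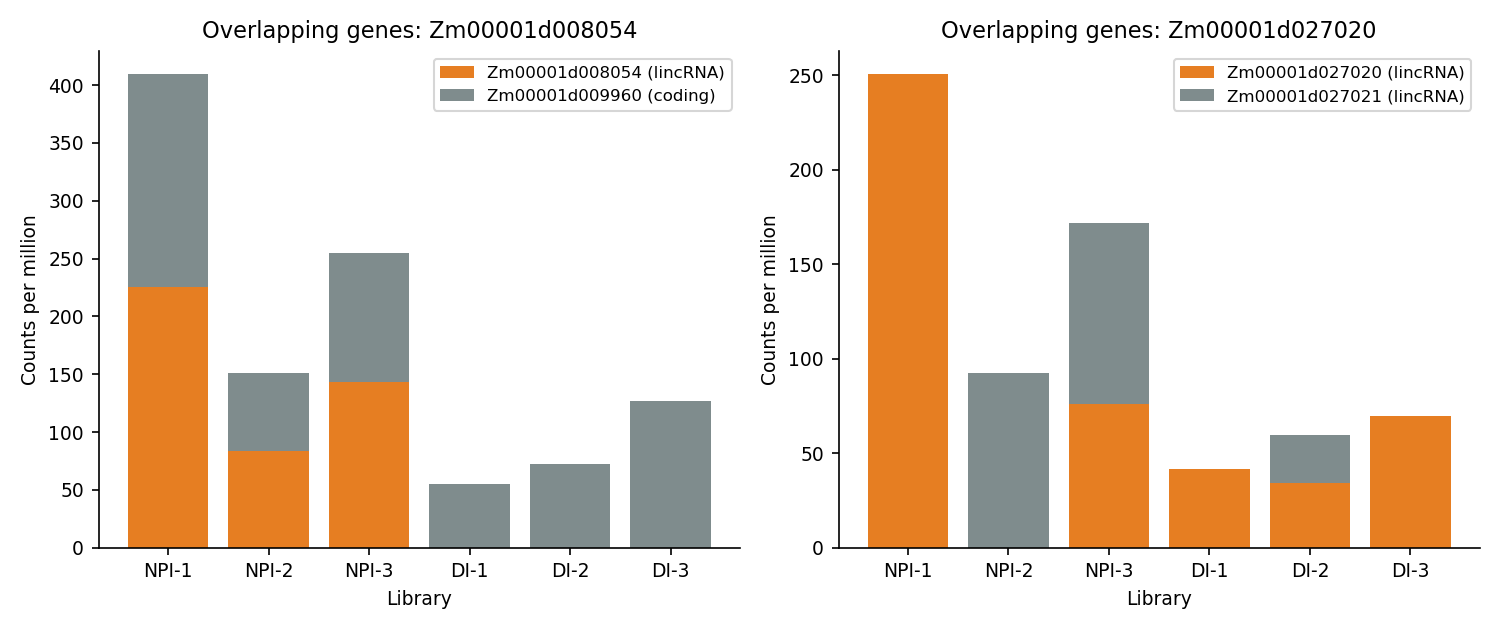
CPM (vertical axis) in each library (horizontal axis) for 2 pairs of overlapping genes, stacked, with the first-named lincRNA in orange. On the left, Zm00001d008054 holds 55.0% to 56.1% of its pair in the NPI libraries and under 0.2% in the DI libraries. On the right, the counts of Zm00001d027020 and Zm00001d027021 lie wholly or almost wholly in 1 of the 2 genes in 4 of the 6 libraries.

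Other abundant lincRNA genes also shared their place with another gene. Zm00001d027020 (chromosome 4, 235753192 to 235761802) and Zm00001d027021 (235760167 to 235761769) overlap on the plus strand. The first had 330.2, 0 and 102 FPKM in NPI and 56.9, 46.4 and 94.8 in DI. The second had 0.01, 134 and 139.9 FPKM in NPI and 0, 37.9 and 0 in DI. Where one was near 0 the other was high, in NPI-1, NPI-2, DI-1 and DI-3, so neither value can be read alone. Their summed CPM were 250.5, 92.4 and 172 in NPI and 41.6, 59.8 and 69.9 in DI, a 3.00-fold higher mean in NPI with no overlap. When the coding gene Zm00001d053593, which overlaps both, was added, the fold was 1.95 and the groups overlapped.

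On chromosome 3, Zm00001d000526 (49806971 to 49809196) had 271, 65.8 and 75.7 FPKM in NPI and 79.8, 2.26 and 124 in DI. It lies inside the coding gene Zm00001d040561 and took 73.4% to 79.5% of the counts of that pair in NPI. In DI it took 70.4%, 3.62% and 69.0%, so DI-2 alone was low. Nearby, Zm00001d000522 had 127, 49.5 and 38.1 FPKM in NPI and 62.3, 95.3 and 100.35 in DI, and the groups overlapped in both genes. Zm00001d000522 overlaps another lincRNA gene of the set, Zm00001d000523. The remaining gene of the 10, Zm00001d001080 on chromosome 7 (4982919 to 4985314), had 83.9, 117 and 43.98 FPKM in NPI and 48.0, 52.0 and 51.6 in DI. It contains 3 copies of the small nucleolar RNA SNOR75, a kind of RNA that guides chemical modification of other RNAs.

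Across the whole set, values were higher in NPI more often than lower. In edgeR 1 of the 191 genes rose, Zm00001d008054, and 0 fell, beside 0.00913% of all tested genes called higher and 0.00457% called lower. At an unadjusted p under 0.05, 49 lincRNA genes (25.7%) were higher and 4 (2.09%) lower, against 12.3% and 8.52% of all tested genes. The groups did not overlap, with NPI higher, in 50 lincRNA genes (26.2%), against 13% of all tested genes. They did not overlap with NPI lower in 11 (5.76%), against 13.7%. Of the 191, 150 (78.5%) had a positive log2 difference, against 54% of all tested genes, and 41 (21.5%) a negative one, against 46%. The fitted difference was above 1 in 81 lincRNA genes (42.4%), against 14.4% of all tested genes, and below -1 in 11 (5.76%), against 8.2%. The median was 0.84, with quartiles of 0.15 and 1.43, beside a median of 0.07 for all tested genes. The minimum on the mean of all libraries shapes these counts. Of the 191, 41 (21.5%) had a mean under 1 FPKM in DI and passed through NPI alone, so they had to be higher, and 9 passed through DI alone. Among all tested genes the shares were 4.51% and 3.39%. In the 141 lincRNA genes with a mean of at least 1 FPKM in each group, 109 (77.3%) had a positive difference, against 53.8% of all tested genes held to the same condition, and the median was 0.64, against 0.06. The difference was above 1 in 49 of the 141 (34.8%, against 11.7%).

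Other non-coding types held to the same minimum had positive medians too, and how many of their genes passed through NPI alone was not examined. The median log2 difference was 2.21 for 43 small nuclear RNA genes, 1.95 for 122 small nucleolar RNA genes and 1.29 for 17 miRNA genes. It was 1.24 for 8 ribosomal RNA genes and 0.76 for 14 transfer RNA genes. The median relative length of each of these types, with 1 for the median tested gene, was under 0.15, against 0.355 for the lincRNA genes.

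The libraries of the NPI group differed in how far the set lay above DI. Relative to the DI mean, the median log2 difference in CPM was 0.95, 0.83 and 0.35 across NPI libraries 1 to 3, with 145, 144 and 130 of the 191 genes above it. Over all tested genes the same medians were 0.02, 0.03 and 0.01. Without NPI-2, edgeR called 16 lincRNA genes higher (8.38%, against 6.65% of all tested genes) and 0 lower (5.19% of all), and the median was 0.74. DESeq2 with all libraries called 30 higher (15.7%, against 6.84%) and 2 lower (1.05%, against 4.53%), and 13 of the 16 were among its calls. lincRNA levels also varied more within a group than those of other genes, with a median SD of log2 CPM of 0.83 in NPI and 0.49 in DI, against 0.57 and 0.28 over all tested genes.

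As a share of all counts, the 191 genes took 0.461%, 0.30% and 0.283% in NPI and 0.164%, 0.182% and 0.224% in DI. The means were 0.348% ± 0.0980 in NPI, against 0.190% ± 0.0311 in DI (SD, n = 3 each), a ratio of 1.83. The groups did not overlap, and the exact two-sided permutation p was 0.1, the smallest that 3 libraries against 3 allow. Without Zm00001d000508 the ratio was 2.04, and without Zm00001d008054 it was 1.75. The 181 genes outside the 10 most abundant took 0.123% ± 0.0331 in NPI, against 0.0715% ± 0.00986 in DI (SD, n = 3 each). The set of 191 includes 41 genes that passed the minimum through NPI alone and had to be higher, which tilts its share toward NPI. All 2532 lincRNA genes, with no minimum, took 0.363% ± 0.0984 in NPI, against 0.202% ± 0.0311 in DI (SD, n = 3 each), a ratio of 1.79.

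Behind Zm00001d008054, the gene with the smallest p was Zm00001d022712, on chromosome 1 (35117435 to 35117735, plus strand). It had 149, 77.5 and 118 FPKM in NPI and 6.04, 3.85 and 6.88 in DI, with every NPI library more than 10 times above every DI library. The log2 difference was 4.43 (SE 0.44, edgeR adjusted p = 0.058), and without NPI-2 it was 4.70 (adjusted p = 0.022). Its nearest coding gene, Zm00001d028440, a probable carboxylesterase, lies 273 bp away on the opposite strand, so that the 3′ ends of the 2 genes face each other. That gene had 28.0, 21.7 and 28.1 FPKM in NPI and 6.83, 5.50 and 4.34 in DI, a log2 difference of 2.30 (SE 0.32, edgeR adjusted p = 0.0619). The gene on the other side, the protein kinase gene Zm00001d028439 at 94895 bp, had a log2 difference of -0.24.

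Zm00001d026786, on chromosome 4 (34264684 to 34265289), had 122, 77.1 and 22.9 FPKM in NPI and 4.97, 5.02 and 6.38 in DI (log2 difference 3.78, SE 0.58, edgeR adjusted p = 0.0715). It starts 36 bp beyond the end of Zm00001d049545, a RING/U-box gene on the same strand whose family includes ubiquitin ligases. That gene had 14.3, 13.0 and 3.86 FPKM in NPI and 1.13, 1.19 and 1.06 in DI (log2 difference 3.21, edgeR adjusted p = 0.0716). In both genes NPI-3 was the lowest of the NPI libraries and still above DI.

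Zm00001d001756, on chromosome 5 (219994466 to 219994697), had 6.95, 2.47 and 15.6 FPKM in NPI and 0.08, 0.22 and 0.44 in DI. The log2 difference was 4.93 (SE 1.01, edgeR adjusted p = 0.0869). Zm00001d001756 passed the minimum through NPI alone, so it had to be higher. The coding gene Zm00001d018400 ends 23 bp away on the opposite strand and averaged 3.11 ± 0.699 FPKM over NPI libraries, against 0.56 ± 0.233 over DI libraries (SD, n = 3 each), a log2 difference of 2.48 (edgeR adjusted p = 0.115). Zm00001d000849 on chromosome 2 (73518047 to 73518658) had 47.6, 14.6 and 30.95 FPKM in NPI and 7.61, 6.90 and 6.49 in DI (log2 difference 2.24, edgeR adjusted p = 0.0942). It lies 95 bp beyond the 3′ end of Zm00001d003981, described as drought-induced protein 1, which had 37.6, 18.3 and 81.9 FPKM in NPI and 19.4, 17.4 and 14.4 in DI. The groups of that coding gene overlapped, with a log2 difference of 1.56 (edgeR adjusted p = 0.205).

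Other lincRNA genes with higher values in NPI lay inside coding genes. Zm00001d008091, on chromosome 8 (132442655 to 132442854), had 23.4, 8.43 and 6.58 FPKM in NPI and 0.77, 0.26 and 0.52 in DI (log2 difference 4.59, edgeR adjusted p = 0.0716). It lies inside Zm00001d010894, described as embryonic flower 1-like and named for an Arabidopsis protein that represses flowering, which stayed between 0.32 and 1.80 FPKM in all libraries. Zm00001d008060 lies inside the gene of ribosomal protein L29-1, Zm00001d010030. It took 4.81%, 2.45% and 0.997% of the counts of that pair in NPI and 0.113%, 0.335% and 0.332% in DI. The ribosomal protein gene itself averaged 137 ± 63.8 FPKM over NPI libraries, against 146.5 ± 9.54 over DI libraries (SD, n = 3 each, edgeR adjusted p = 0.928). Zm00001d001307, inside the gene of ribosomal protein S29, took 5.23% to 10.8% of its pair in NPI and 1.55% to 3.12% in DI. The 2 other named higher genes, Zm00001d001006 and Zm00001d026915, lie over 5000 bp from any coding gene, at log2 differences of 1.29 and 3.92 (adjusted p = 0.109 and 0.110, edgeR). Zm00001d008091, Zm00001d008060 and Zm00001d026915 passed the minimum through NPI alone, so they had to be higher.

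Lower values in NPI were fewer and smaller. The strongest by p was Zm00001d023182 on chromosome 10 (135300998 to 135302010), with 0.92, 0.61 and 0.82 FPKM in NPI and 1.57, 3.67 and 3.73 in DI (log2 difference -1.84, SE 0.57, edgeR adjusted p = 0.153). Zm00001d023182 passed the minimum through DI alone, so it had to be lower. Its nearest coding gene, 905 bp away, is glutamic dehydrogenase2, which makes an enzyme that links carbon and nitrogen metabolism. That gene, Zm00001d025984, averaged 75.7 ± 21.3 FPKM over NPI libraries, against 134.7 ± 37.1 over DI libraries (SD, n = 3 each), a log2 difference of -0.74 (edgeR adjusted p = 0.312). Zm00001d001566 had 0.92, 4.29 and 2.56 FPKM in NPI and 7.91, 8.15 and 8.61 in DI (log2 difference -1.63, edgeR adjusted p = 0.172). The RNA-binding protein gene that overlaps it, Zm00001d014812, averaged 45.7 ± 16.8 FPKM over NPI libraries, against 49.7 ± 9.21 over DI libraries (SD, n = 3 each). DESeq2 called these 2 lincRNA genes lower, at adjusted p = 0.0327 and 0.0439.

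The lincRNA gene Zm00001d000640 and the DUF506 gene that overlaps it, Zm00001d042376, had alike differences of -2.03 and -1.68 (edgeR adjusted p = 0.210 and 0.257). The lincRNA had 1.5, 3.13 and 6.08 FPKM in NPI and 29.6, 9.90 and 7.64 in DI, with DI-1 far above the rest. Zm00001d022662 had 1.39, 1.3 and 1.31 FPKM in NPI and 2.73, 1.89 and 2.81 in DI, and lies 1152 bp before the start of the gene of calcium-dependent protein kinase 6. That kinase gene, Zm00001d027480, averaged 32.4 ± 12.4 FPKM over NPI libraries, against 89.4 ± 17.2 over DI libraries (SD, n = 3 each, log2 difference -1.37, edgeR adjusted p = 0.148). The other 6 named lower genes had log2 differences of -1.3 to -2.60 (edgeR adjusted p of 0.201 to 0.598). Of these, Zm00001d027048, Zm00001d001206, Zm00001d008101 and Zm00001d023150 passed the minimum through DI alone, so they had to be lower.

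**Figure D3:**
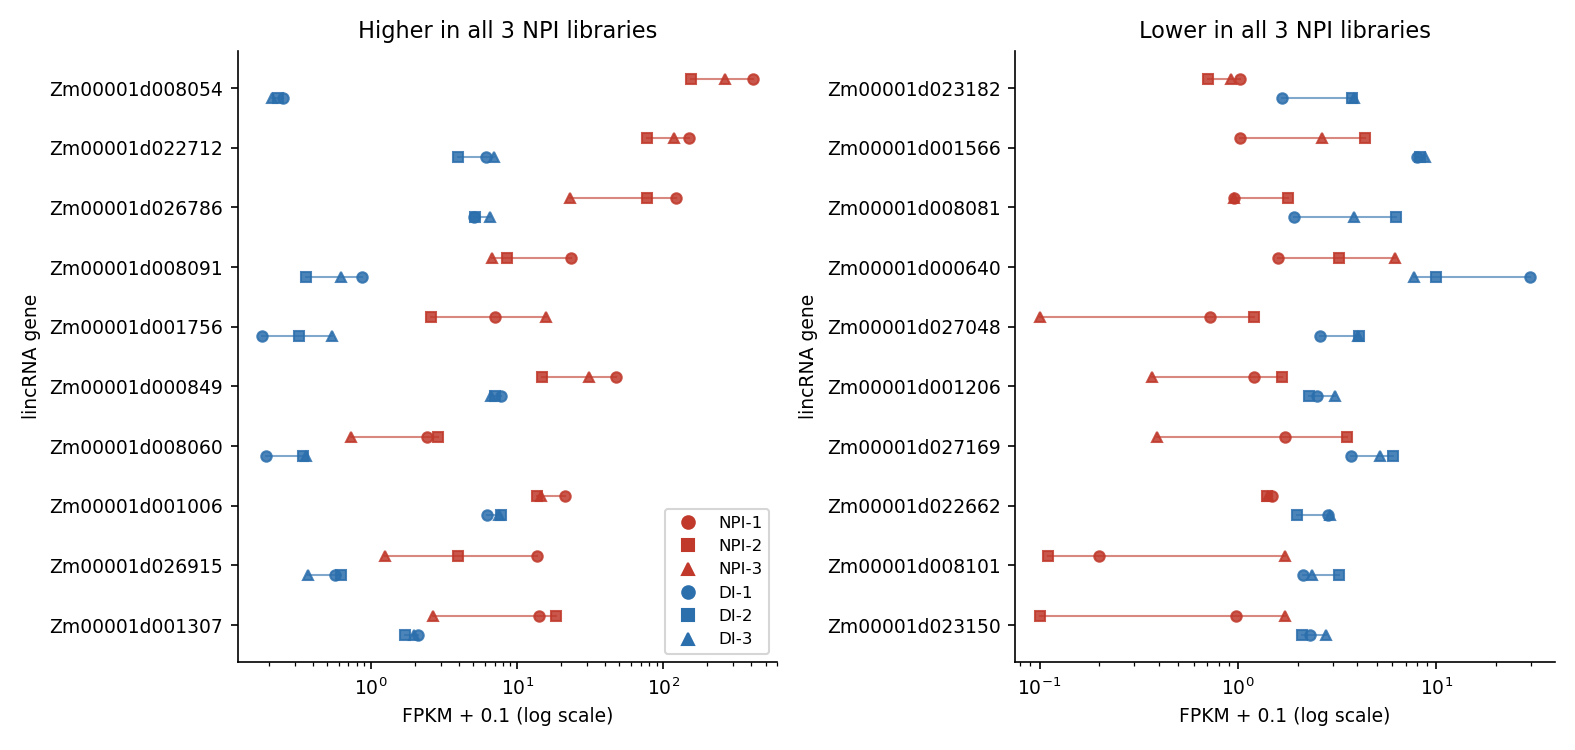
FPKM plus 0.1, on a log axis, of the lincRNA genes with the smallest p among those whose groups did not overlap, 10 higher in NPI (left) and 10 lower (right), in the NPI libraries (red) and DI libraries (blue). Lines run from the lowest to the highest library of a group. Only Zm00001d008054 passed the threshold in edgeR.

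By position, 55 of the 191 genes overlapped a coding gene in the deposited coordinates, 47 of them on the same strand, and 28 lay wholly inside such a gene. A further 34 lay within 1000 bp of the nearest coding gene, and the median distance over the set was 1253 bp. The 47 same-strand genes had a median log2 difference of 1.06, with 41 positive. The 136 that overlapped no coding gene had a median of 0.70, with 104 positive, and their groups did not overlap, with NPI higher, in 28 (20.6%, against 13% of all tested genes). These 136 genes took 0.183% ± 0.0428 of all counts in NPI, against 0.123% ± 0.0159 in DI (SD, n = 3 each, exact permutation p = 0.1). Both sets of genes were chosen with the same minimum. Those that passed through NPI alone had to be positive, and they tilt this share toward NPI too.

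Nearest coding genes were spread to both sides of 0. Of the 191, 136 had a nearest coding gene that was tested, while some pairs shared a neighbour, so that there were 132 distinct coding genes. These had a median log2 difference of -0.07, with 61 positive and 0 called in edgeR, while the 136 lincRNA genes had a median of 0.95. Groups did not overlap in 17 of the 132 with NPI higher (12.9%, against 13% of all tested genes) and in 21 with NPI lower (15.9%, against 13.7%). Across the 136 pairs, which share libraries and in part reads, the Spearman correlation of the 2 log2 differences was 0.193 and Pearson's r was 0.271. For both neighbours of each gene within 5000 bp the Spearman correlation was 0.292 over 120 pairs, and beyond 20000 bp it was 0.0691 over 105. For adjacent coding genes within 5000 bp it was 0.0341 over 4591 pairs.

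Pairs in which the lincRNA lay within 1000 bp of a 3′ end had the highest correlations, in a grouping made after the values were seen and without a test of the differences between positions. On the same strand, 15 lincRNA genes lay beyond a 3′ end, and 14 had positive differences, with a median of 0.83. In the 10 such pairs with a tested coding gene the Spearman correlation was 0.855. On the opposite strand there were 9, of which 8 were positive, with a median of 1.58 and a correlation of 0.821 over 7 tested pairs. Overlapping pairs had a correlation of 0.253 over 47. Before a 5′ end there were 10 lincRNA genes, 4 of them positive, and the 6 tested pairs on opposite strands had a correlation of 0.314. Over the whole set 78.5% of the genes were positive, with a median of 0.84. The classes also include genes that passed the minimum through NPI alone and had to be higher, such as Zm00001d001756. With so few pairs in each class, these values are descriptions.

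**Figure D4:**
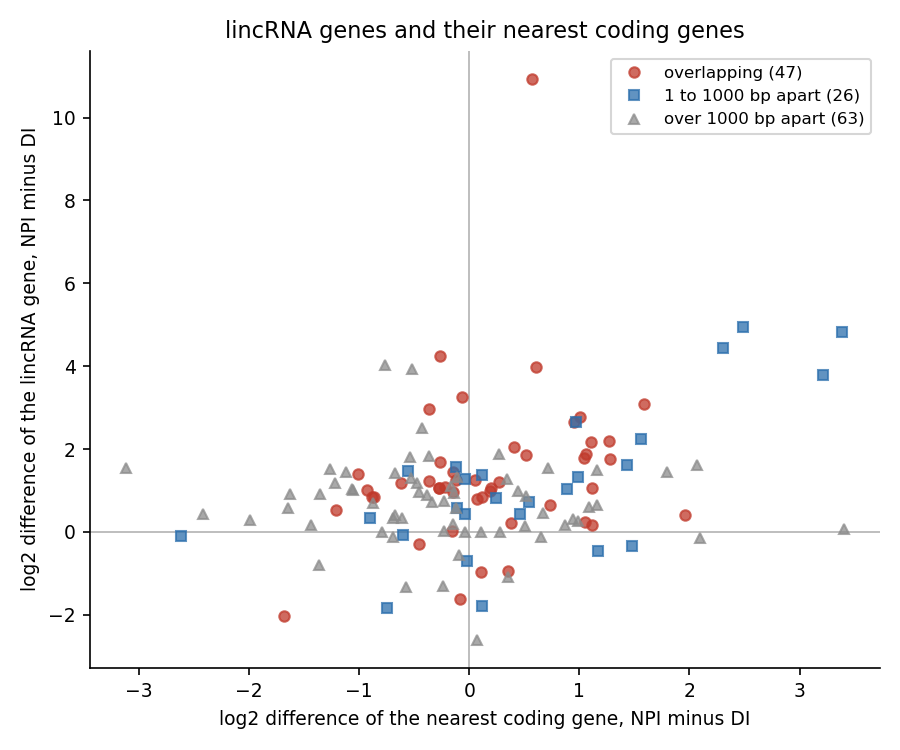
Log2 difference, NPI minus DI, of each lincRNA gene (vertical) against that of its nearest tested coding gene (horizontal), for 136 pairs, 47 of them overlapping (red circles), 26 at 1 to 1000 bp (blue squares) and 63 farther apart (grey triangles). The 4 farthest blue squares lie at the upper right, and most points lie above 0 on the vertical axis while they spread to both sides of 0 on the horizontal axis.

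Small RNA genes lay within some of the lincRNA genes. Zm00001d027041 on chromosome 4 (244519520 to 244520815, minus strand) contains zma-MIR168b, a gene of miR168, the microRNA that in plants targets ARGONAUTE1, the core protein of the silencing complex. It had 10.05, 11.8 and 0.59 FPKM in NPI and 0.18, 0.30 and 0.86 in DI, so NPI-3 lay among the DI libraries (log2 difference 4.02, SE 1.13, edgeR adjusted p = 0.134, DESeq2 adjusted p = 0.00137). Zm00001d027041 passed the minimum through NPI alone, so it had to be higher. The table holds 2 entries at the place of the hairpin. One, typed as a precursor, had 1.66, 6.74 and 0.09 FPKM in NPI and 0.04, 0.06 and 0.17 in DI (log2 difference 3.82, edgeR adjusted p = 0.187). This entry too passed through NPI alone. The other, typed as a miRNA, had 1.7, 6.78 and 2.42 FPKM in NPI and 1.41, 1.33 and 1.61 in DI (log2 difference 1.29, edgeR adjusted p = 0.354), with NPI-3 above all DI libraries. These libraries do not measure the mature microRNA. Of the 6 tested genes named argonaute1, 1a, 1b or 1c or described as argonaute 1, 5 had negative log2 differences, from -0.63 in Zm00001d011096 to -1.50 in Zm00001d026111, and Zm00001d022382 had 0.60. None passed the threshold, with edgeR adjusted p of 0.202 to 0.630. Negative differences made up 46% of those of all tested genes. In argonaute1, 1a, 1b and 1c, NPI-2 was the highest of the NPI libraries and NPI-3 the lowest. Zm00001d026111 had 2.48, 15.42 and 1.89 FPKM in NPI and 13.42, 28.59 and 12.83 in DI. A link of these genes to miR168 was not tested. Zm00001d027041, and the snoRNA genes that follow, were named after their values were seen.

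Small nucleolar RNAs lay within 6 lincRNA genes, all with positive log2 differences, beside 78.5% of the 191. The 6, of which Zm00001d001285 also overlaps the coding gene Zm00001d022433 on the same strand, ranged from 0.71 to 2.98. The highest was Zm00001d001472 on chromosome 6 (163944104 to 163945486), which contains snosnR60_Z15 and snoU83 and had 11.3, 46.2 and 4.52 FPKM in NPI and 2.45, 2.26 and 2.89 in DI (edgeR adjusted p = 0.115). In 5 of the 6, NPI-2 had the highest level of the 6 libraries, among them Zm00001d022725, with 3.29, 12.2 and 1.87 FPKM in NPI and 1.88, 1.98 and 1.94 in DI.

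Length moved with the differences. Relative length, computed by dividing each gene's count by its FPKM, had a median of 0.355 for the lincRNA genes and 1.01 for tested coding genes, where 1 is the median tested gene. In the shortest length decile of all tested genes, the 104 lincRNA genes had a median log2 difference of 0.72 and the 1870 coding genes 0.35. In the next decile the 51 lincRNA genes had 0.96 and the 2138 coding genes 0.30. The other deciles held fewer than 20 lincRNA genes each. In the shortest decile the lincRNA medians were 0.70, 0.68 and 0.62 in NPI-1, NPI-2 and NPI-3, and those of coding genes 0.24, 0.08 and 0.53. With a smooth trend on length removed from all genes, the median of the lincRNA set was 0.51, and that of all tested genes -0.01. The lincRNA values by length still include the genes that passed the minimum through NPI alone, 41 in the whole set, which had to be higher.

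**Figure D5:**
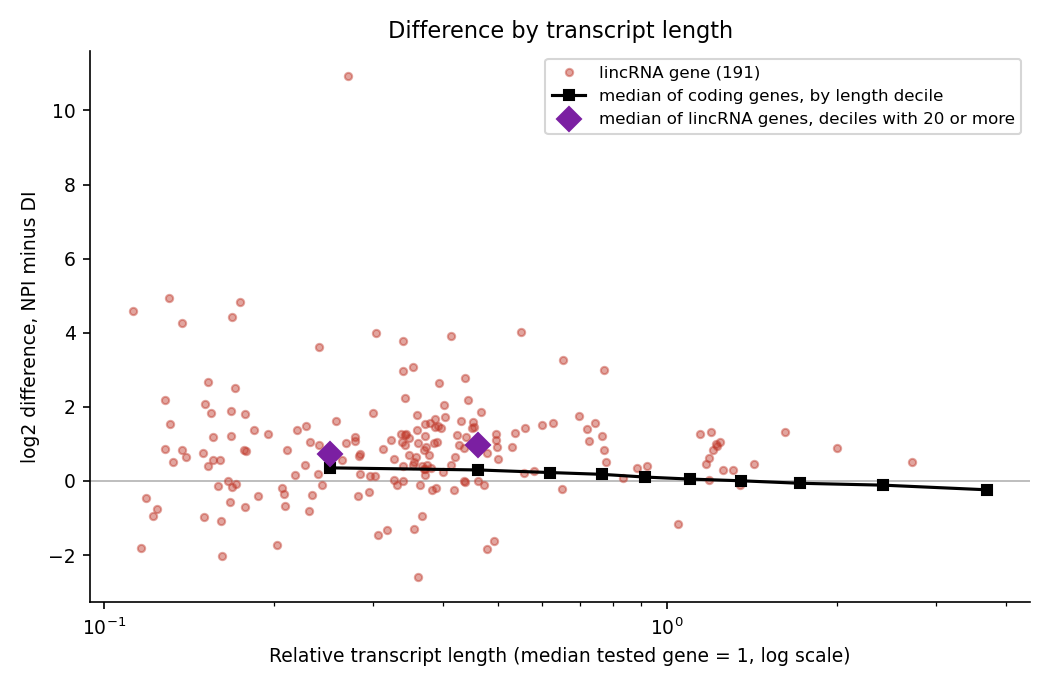
Log2 difference, NPI minus DI, of the 191 lincRNA genes (red) by relative transcript length on a log axis, with the median of coding genes in each decile of length (black squares) and the median of lincRNA genes in the 2 deciles that hold 20 or more (purple diamonds). The coding medians fall with length, from 0.35 to -0.24, and both purple diamonds lie above them, at 0.72 and 0.96.

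Genes that make, process or degrade RNA, a list that also holds general genes such as those of mRNA decapping, had log2 differences of both signs. Of 80 tested genes of this kind, 37 had positive and 43 negative differences, with a median of -0.12 beside 0.07 for all tested genes. None passed in edgeR. At an unadjusted p under 0.05, 8 were higher and 8 lower, 10.0% each way, against 12.3% and 8.52% of all tested genes. DESeq2 called 3 higher and 3 lower, 3.75% each way, against 6.84% and 4.53%. Without NPI-2, edgeR called 2 higher (2.5%, against 6.65% of all tested genes) and 11 lower (13.75%, against 5.19%), and the median was -0.32. The smallest p was in Zm00001d025899, a 5′-3′ exoribonuclease, an enzyme type that degrades RNA, at 4.68 ± 0.587 FPKM over NPI libraries, against 0.753 ± 0.114 over DI libraries (SD, n = 3 each, log2 difference 2.71, edgeR adjusted p = 0.0619). Higher values were also found for dicer-like 105 (Zm00001d013796), of the family that cuts double-stranded RNA, and for a 3′-5′ exoribonuclease gene, Zm00001d014882, at log2 differences of 1.41 and 0.93 (adjusted p = 0.119 and 0.141, edgeR). Other exoribonuclease genes went both ways. The 3′-5′ type had -1.48 (Zm00001d049854), -0.72 (Zm00001d014880) and 0.07 (Zm00001d049855). The 5′-3′ type had -0.91 (Zm00001d040311), 0.67 (Zm00001d009472) and 0.35 (Zm00001d013083). A gene of subunit 1 of RNA polymerase IV, which starts small RNA production for DNA methylation in plants, had 0.917 ± 0.610 FPKM in NPI and 5.11 ± 1.64 in DI (Zm00001d031457, SD, n = 3 each, log2 difference -2.44, edgeR adjusted p = 0.101). Nuclear poly(A) polymerase 2 (Zm00001d036977) and argonaute104 (Zm00001d039214) both differed by -1.03 on the log2 scale (edgeR adjusted p = 0.118 and 0.127).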

How the data were processed

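For 6 poly(A) libraries of maize root tips the authors deposited estimated counts and FPKM of 45953 genes. FastQC 0.10.1, HISAT2 2.0, StringTie 1.3.4 and edgeR are named in the submitters' processing notes. Genome build and strand handling are not given in the sources used here. The deposited estimated counts hold only whole values and were used as they stand. FPKM in the deposited table was used for the minimum of 1 (mean of 6 libraries) and for levels.

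NPI was compared with DI in edgeR 4.0.16 under R 4.3.3, by its quasi-likelihood test with TMM factors, two-sided, with Benjamini-Hochberg adjustment over all 21902 genes at or above the minimum and a threshold of 0.05. Each SE came from dividing a log2 difference by the square root of its F statistic. Alternatives used DESeq2 1.42.0, limma 3.58.1, other scaling, filters and moderation, leaving out each library in turn, and a replicate block. On data simulated for this comparison, with 21902 genes, 29% of genes with a 4-fold change and 83% with a 16-fold change were found by edgeR, which called 4 unchanged genes. DESeq2 found 68% and 95% and called 81 unchanged genes. The simulation gave each gene the same spread in both groups, had no library that stood apart, and changed only genes above a minimum count. In the data the median SD of log2 CPM was 0.57 in NPI and 0.28 in DI, so these rates may not hold for them.

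Neighbours are the nearest protein-coding genes by chromosome and start, and distance runs between gene ends. Named lincRNA genes were the 10 of highest mean FPKM and the 10 higher and 10 lower with the smallest p among those whose groups did not overlap. For RNA machinery genes, the 3 of smallest p in each direction were named, and genes were found by words in names and descriptions, as were the tissue markers. The members and lists were chosen with earlier results of these data known. The word plethora matched no gene, the 50 scarecrow or short-root genes summed to 87.6 to 155.5 FPKM in NPI and 74.9 to 105.9 in DI, and the 2 roothair defective genes summed to 20.4 to 57.5 FPKM in NPI and 32.8 to 62.4 in DI. Shares of counts used exact permutation tests (scipy 1.17.1), and figures matplotlib 3.10.9.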

Additional observations from a re-analysis of the deposited data

How the results depend on the processing

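The number of lincRNA genes called higher, 1 in edgeR, was 30 in DESeq2, 3 in limma on log2(FPKM + 1) or log2(FPKM + 0.1), and 0 in limma-voom. It was 2 with library size as the only scaling, with no filter, with a minimum of 5 FPKM (70 of the genes tested) and with the newer quasi-likelihood estimate. With a library left out it ranged from 0, without any DI library, to 16, without NPI-2. The number called lower, 0, was 2 in DESeq2. The causes were not tested. The median log2 difference of 0.84 was 0.44 in limma on log2(FPKM + 1), a scale that shrinks low genes, 0.51 with the length trend removed, and 0.65 to 0.94 with a library left out. The correlation with nearest coding genes, 0.193, was 0.28 for those within 5000 bp, 0.158 for those on the opposite strand, and 0.167 to 0.264 with a library left out. With the neighbours on both sides it was 0.169, of which 0.292 for pairs within 5000 bp and 0.152 for pairs on opposite strands. The log2 difference of Zm00001d027020 turned negative in limma (-2.07 and -0.98), in limma-voom (-3.54), with the replicate block (-0.36) and without NPI-1 (-0.16 to 1.81 over the libraries left out). That of Zm00001d000522 ran from -0.92 without NPI-1 to 0.0693 without NPI-3. The ratio of count shares was 1.53 to 2.01 with a library left out.

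Whether the shared replicate numbers pair the libraries cannot be decided from 3 libraries per group. The number of DI-2 is also in doubt, since its title says 2 and its description says 3. Deviations of NPI and DI libraries with the same number correlated at -0.236, 0.169 and 0.162, and NPI-1 correlated best with DI-3, at 0.268. With the replicate block, 1 lincRNA gene was called higher, the median was 0.70, and the sign permutation of count shares within pairs gave an exact p = 0.25, the smallest possible. The fold of Zm00001d008054 rests on 5 counts in each DI library, and 15 of the 191 genes had no count in at least 1 library. How far depth limits the calls was not tested.

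The values for genes that overlap no coding gene or have a mean of at least 1 FPKM in each group, the refits of the RNA machinery genes and the correlations with nearest genes by distance, strand or library left out were chosen after seeing the data. Overlap of groups for single genes was judged on FPKM.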
